A study of Homo sapiens with 22 samples.

Results

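Thapsigargin and tunicamycin, a pair of drugs that disturb the endoplasmic reticulum (ER) in different ways, were compared after 2 h in LN308 cells. The comparison uses 8 of the 22 libraries of the study. For RNA-Seq (total cellular RNA) and for Ribo-Seq (ribosome-protected mRNA fragments, from cells given cycloheximide at 0.1 mg/ml for 5 min in every group) apart, 1 thapsigargin library was set against 3 tunicamycin libraries, replicates 1, 2 and 3. LN308 is an established line of glial cells from an astrocytoma that lacks p53, so every group shares that deficiency, and each group comes from this line alone. Thapsigargin was given at 200 nM and tunicamycin, dissolved in DMSO, at 2.5 µg/ml. Each drug was used at 1 dose, so the values compare these treatments as given and not drugs at matched strength. Untreated cells (0 h, 3 libraries per assay) and the 6 h libraries (3 of tunicamycin and 1 of thapsigargin per assay) are given beside the 2 h values where they bear on them. Nothing in the labels ties the replicates to independent cultures, and the p-values therefore reflect the spread among these libraries, which could be technical. Protein-coding genes are described throughout.

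Thapsigargin blocks the SERCA pumps, which carry calcium from the cytosol into the ER. With the pumps blocked, calcium leaks out of the store, cytosolic calcium rises, and the emptied store is sensed by STIM proteins, which open ORAI channels in the plasma membrane (store-operated calcium entry). Cytosolic calcium activates calmodulin, its kinases and the phosphatase calcineurin, which act on the transcription factors CREB and NFAT. Tunicamycin blocks the enzyme encoded by DPAGT1, which makes the first lipid-linked sugar of N-glycosylation, and so leaves newly made glycoproteins without their sugars. Both drugs lead to misfolded proteins in the ER and to the unfolded protein response, which has 3 branches: ATF6, a membrane-bound transcription factor released by proteolysis; IRE1, an RNase that splices the XBP1 mRNA; and PERK, a kinase of eIF2 alpha that favours translation of ATF4. The gene groups below follow that order.

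Levels are given in CPM, counts scaled to a library of fixed size with TMM factors, and tunicamycin values always stand in the order of replicates 1, 2 and 3. Differences are log2 ratios of CPM + 0.5, thapsigargin over tunicamycin, to replicate 1 and to the mean log2 value of all 3 replicates. A gene is said to lie above or below the tunicamycin libraries when the thapsigargin value is outside the range of all 3. The ratio to replicate 1 compares 2 libraries and carries no test. The test of the treatments (edgeR's quasi-likelihood test, call at a Benjamini-Hochberg adjusted p under 0.05) takes its spread from the other groups, because thapsigargin had 1 library and so no replicate check.

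The thapsigargin RNA-Seq library held 114881628 counts and the tunicamycin libraries 109457859 to 130792583, against 7660278 and 4387173 to 13043436 in Ribo-Seq. Tunicamycin replicate 1 stood apart from replicates 2 and 3 in RNA-Seq and was close to the thapsigargin library. Among 11762 coding genes with at least 200 counts in thapsigargin or replicate 1, 3.83% differed at least 2-fold between thapsigargin and replicate 1. Thapsigargin differed from replicates 2 and 3 at 10.1% and 12.8% of these genes. The shares were 9.39% between replicates 1 and 2, 12.9% between replicates 1 and 3, and 0.383% between replicates 2 and 3. Mitochondrially encoded mRNAs took 0.587% of RNA counts after thapsigargin, 0.443% in tunicamycin replicate 1, and 1.61% and 1.54% in replicates 2 and 3. In footprints they took 1.38% after thapsigargin, below the 3.40%, 2.34% and 2.69% of tunicamycin replicates 1, 2 and 3. The labels name no batch; the thapsigargin RNA-Seq label carries the number 1 and the Ribo-Seq label carries none. In Ribo-Seq, among 10657 genes with at least 50 counts, thapsigargin differed 2-fold from replicates 1, 2 and 3 at 8.9%, 8.46% and 19.8%. Between tunicamycin libraries the shares were 12.6% (replicates 1 and 2), 28.6% (1 and 3) and 11.0% (2 and 3). In footprints thapsigargin was thus no closer to replicate 1 than to replicate 2. Protein-coding genes held 91.7% of the thapsigargin footprint counts and 82.0 to 85.0% of those of tunicamycin.

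The 16 glial markers summed to 2700 CPM in the thapsigargin RNA-Seq library and to 3130 to 3420 CPM in the tunicamycin libraries. In footprints the sums were 2070 CPM after thapsigargin and 2150 to 3490 CPM after tunicamycin. In RNA VIM, an intermediate filament, made up a large part of the sum, at 1426 CPM against 1445, 1226 and 1433. OLIG2, a transcription factor of glial lineages, was at 15.7 against 9.8, 19.8 and 24.8. GFAP and AQP4 were near 0 in these RNA-Seq libraries, while S100B, another marker of the list, was well above 0 (values below). GFAP, the astrocyte filament protein, was at 0.678 and 1.78, 1.76 and 1.64 CPM, and AQP4, the astrocyte water channel, at 0.00942 and 0.039, 0.0397 and 0.028 CPM. Of the other cell types, 13 blood markers summed to 2.76 CPM after thapsigargin and 2.55 to 3.99 CPM after tunicamycin, and 7 endothelial markers to 1.61 and 1.70 to 3.13 CPM. Neuron markers (9 genes) reached 233 and 192 to 227 CPM, and epithelial markers (11 genes) 73.1 and 67.7 to 95.9 CPM. In this bulk RNA, fewer cells of a type and less RNA per cell cannot be told apart.

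Ranked by the smaller of the ratio to replicate 1 and the ratio to all 3, the 12 genes farthest above tunicamycin in RNA were NR4A3, RGS2, PTGS2, NR4A2, BMP2, DUSP1, FOS, ATF3, FST, KLF4, RGS16 and RASD1. In footprints they were NR4A2, NR4A3, PTGS2, DUSP1, CALCA, NR4A1, FOSB, RGS2, WFDC2, FOS, AGO4 and IL24. RGS2, an inhibitor of G protein signalling, was at 268 CPM after thapsigargin and 10.4, 18.6 and 26.3 CPM after tunicamycin, and its footprints at 168 against 10.6, 18.1 and 11.3 CPM. The log2 ratios were 4.63 to replicate 1 and 3.92 to the mean of all 3 in RNA, and 3.93 to replicate 1 and 3.65 to the mean of all 3 in footprints. The thapsigargin value lay about an order of magnitude above every tunicamycin library in both assays, while untreated cells (7.95, 14.5 and 23.2 CPM in RNA) were at levels like those of tunicamycin.

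RGS16, a relative of RGS2 that also shortens G protein signals, was at 64.8 CPM after thapsigargin and 10.0, 8.38 and 8.47 CPM after tunicamycin, with footprints at 78.8 against 18.5, 12.6 and 18.8 CPM. The tunicamycin replicates of RGS16 were close together in both assays. NFIL3, a bZIP repressor, was at 87.1 CPM after thapsigargin and 11.4, 16.4 and 16.6 CPM after tunicamycin. DNAJB9, an ER co-chaperone of BiP, was at 199 CPM after thapsigargin and 37.9, 46.7 and 43.5 CPM after tunicamycin, and untreated cells were at 21.1, 17.6 and 16.8 CPM. In footprints DNAJB9 was at 97.4 against 12.7, 22.2 and 12.8 CPM. For each of these genes the thapsigargin value stood clear of a narrow group of tunicamycin values.

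In the test across all genes, 3 of 18138 protein-coding genes were called higher in RNA (0.0165%) and 0 lower. The 3 were DNAJB9 (log2 fold change 2.22 ± 0.277 SE), RGS16 (2.85 ± 0.351) and NFIL3 (2.56 ± 0.311), each at an adjusted p of 0.0368. In footprints 3 of 13329 were called higher (0.0225%) and 0 lower: RGS2 (3.65 ± 0.418) and the nuclear receptor NR4A2 (4.45 ± 0.524), both at an adjusted p of 0.0148, and DMRTA1 (2.83 ± 0.389, adjusted p = 0.0363), which encodes a DM-domain protein. Over all entries with or without a protein, 11 of 41130 in RNA (0.0267%) and 4 of 19411 in footprints (0.0206%) were called higher, and 0 and 1 (0.00515%) lower. At an unadjusted p under 0.05 stood 976 of the 18138 coding genes in RNA and 382 of the 13329 in footprints. Over all entries there were 2202 in RNA and 733 in footprints, where 2056 and 971 are expected with no change. DESeq2 called 80 higher and 56 lower in RNA, and 25 higher and 11 lower in footprints. Leaving out any of the tunicamycin libraries ended the 3 RNA calls, with adjusted p of 0.186 without replicate 1, 0.306 to 0.316 without replicate 2 and 0.237 without replicate 3 by edgeR. Of the footprint calls, only that of NR4A2 without replicate 3 remained (adjusted p = 0.0121). The others came to 0.0552 and 0.07 (RGS2), 0.0945 and 0.0781 (NR4A2), and 0.0945 and 0.165 (DMRTA1) without replicates 1 and 2, and to 0.0681 for RGS2 and DMRTA1 without replicate 3.

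The same-numbered RNA-Seq libraries deviated together, and a fit with the replicate number as a block called 5 genes higher and 0 lower in RNA, with 0 shared with the 3 above. They were BMP2, MYADM, NFKBID, RGS2 (adjusted p = 0.0278) and RGS3. RNA-Seq untreated replicate 1 stood apart from all others, with counts in 53489 genes against 38264 to 40331. When that library was left out as well, a choice made after seeing the data, the blocked fit called 1136 of 15396 coding genes higher (7.38%) and 1389 lower (9.02%), all 3 genes of the unblocked fit included. That fit corrects the thapsigargin library for the shift of the libraries numbered 1, as estimated from the tunicamycin groups. It takes its spread from the tunicamycin and untreated libraries, with few residual degrees of freedom left after the group and block terms. Its p-values therefore reflect how constant the shifts between numbered libraries were across those groups, and not a spread of thapsigargin treatment. The thapsigargin library still has no replicate there, and a gene called may lie inside the range of the 3 tunicamycin libraries. All footprint calls come from a fit without a block. The fit with the block and without untreated replicate 1 is called the blocked fit below, and its values are log2 fold changes ± SE with edgeR's adjusted p. Its counts of list members are to be read against the shares of 7.38% higher and 9.02% lower.

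The simple count was wider than the test's. In RNA 4783 coding genes lay above all 3 tunicamycin libraries (26.4%) and 4260 below (23.5%), and 394 were at least 2-fold above replicate 1 (2.17%) and 78 at least 2-fold below (0.43%). Both conditions were met by 274 genes upward (1.51%) and 68 downward (0.375%). The blocked fit called 239 of the 274 and 63 of the 68. Those genes were chosen on the same thapsigargin and tunicamycin libraries that the fit uses, so the overlap is not an independent check. In footprints 2771 coding genes lay above (20.8%) and 2621 below (19.7%), 905 were at least 2-fold above replicate 1 (6.79%) and 826 at least 2-fold below (6.2%), and both conditions were met by 433 (3.25%) and 464 (3.48%). The median log2 ratio over all coding genes tested was -0.015 to replicate 1 and 0.007 to the mean of 3 in RNA, and 0 for both in footprints. Counts of list members are to be read against these shares and medians.

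**Figure D1:**
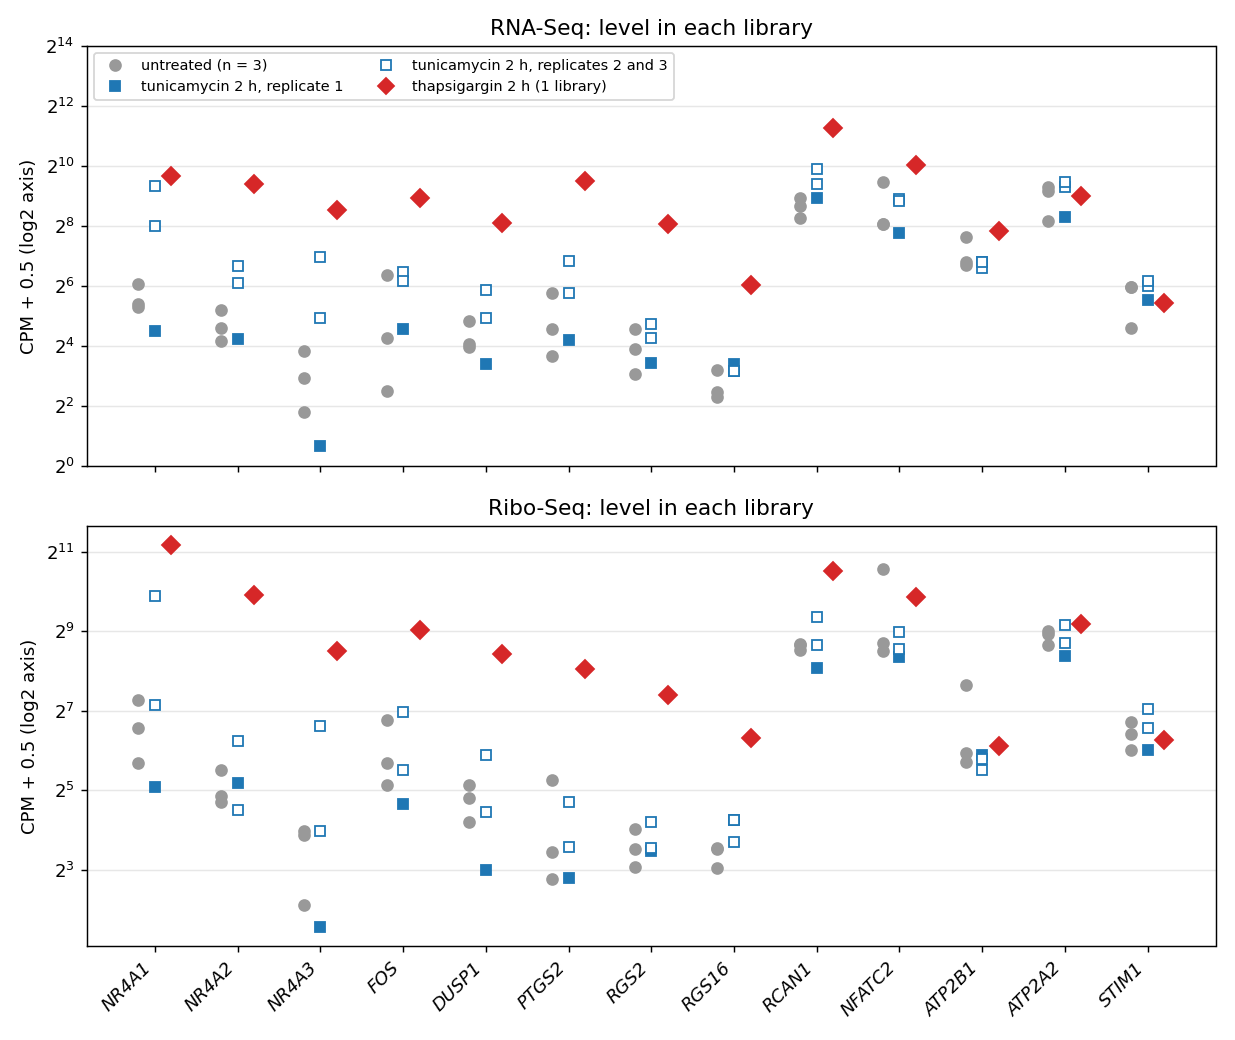
Level of calcium-linked genes in each 2 h and untreated library on a log2 axis of CPM + 0.5, RNA-Seq above and Ribo-Seq below. Grey circles are the 3 untreated libraries, filled squares tunicamycin 2 h replicate 1, open squares replicates 2 and 3, and the diamond the thapsigargin 2 h library; the diamond lies above every square from NR4A1 to ATP2B1 in both panels, and among or below the squares for STIM1.

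The NR4A nuclear receptors, immediate early genes induced by calcium and cAMP, had log2 ratios to replicate 1 from 5.15 to 7.86 in RNA. NR4A3 was at 367 CPM after thapsigargin and 1.08, 30.1 and 123 CPM after tunicamycin, a log2 ratio of 7.86 to replicate 1 and 4.34 to the mean of all 3. NR4A2 was at 676 CPM after thapsigargin and 18.3, 68.8 and 102 CPM after tunicamycin (5.17 to replicate 1 and 3.73 to the mean of all 3), and NR4A1 at 806 CPM after thapsigargin and 22.2, 256 and 645 CPM after tunicamycin (5.15 to replicate 1 and 2.37 to the mean of all 3). The tunicamycin RNA libraries themselves spread widely for these genes, with replicate 1 lowest and replicate 3 highest, and for NR4A1 the thapsigargin library stood only a little above replicate 3. In footprints the gap to the highest tunicamycin library was wider: NR4A1 was at 2288 against 33.7, 142 and 944 CPM, NR4A2 at 966 against 36.2, 22.3 and 75.1, and NR4A3 at 359 against 2.47, 15.3 and 97.8. None passed the blocked fit in RNA, at adjusted p of 0.0579 (NR4A2), 0.0685 (NR4A3) and 0.0924 (NR4A1).

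FOS, a subunit of the AP-1 transcription factor, was at 493 CPM after thapsigargin and 23.0, 87.9 and 72.0 CPM after tunicamycin, and in footprints at 524 against 24.7, 45.2 and 125 CPM; the blocked fit gave 4.62 ± 0.619, adjusted p = 0.0277. PTGS2, the inducible cyclooxygenase, was at 729.8 CPM after thapsigargin and 17.7, 53.5 and 115 CPM after tunicamycin, and in footprints at 264 against 6.53, 11.5 and 25.5 CPM; it did not pass the blocked fit (4.58 ± 0.827, adjusted p = 0.0563). DUSP1, a phosphatase that switches off MAP kinases, was at 273 CPM after thapsigargin and 10.1, 30.2 and 57.2 CPM after tunicamycin, with 345 against 7.47, 21.7 and 58.5 CPM in footprints and 4.87 ± 0.263, adjusted p = 0.000196 in the blocked fit. All 3 genes lay above the tunicamycin libraries in both assays. Of the 12 highest in RNA, the blocked fit called 8 and did not call PTGS2, NR4A2, NR4A3 and ATF3. The 12 were ranked on the same libraries that the fit uses, so that count is not an independent check. KLF4, a zinc finger transcription factor, was at 265 CPM after thapsigargin and 26.3, 50.7 and 52.0 CPM after tunicamycin (blocked fit 3.14 ± 0.132, adjusted p = 6.22e-07), and BMP2, a secreted growth factor, at 84.8 CPM after thapsigargin and 4.68, 7.3 and 12.7 CPM after tunicamycin. FST, an antagonist of activin, and RASD1, a Ras-like protein, were at 536 against 48.2, 83.8 and 137 CPM and 8.35 against 0.616, 1.14 and 1.36 CPM.

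The promoter of DUSP1 holds a cAMP response element, the palindrome TGACGTCA that CREB binds, and it is printed as the motif of the CREB route. The sequence is from RefSeq (build GRCh38.p14), minus strand, chr5:172771288-172771345, with the motif in capitals beginning 125 bases before the start.
DUSP1: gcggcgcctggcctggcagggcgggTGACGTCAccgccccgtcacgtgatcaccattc
Searched on both strands in the 250 bases before and 50 after each start, TGACGTCA occurred in 403 of 15254 windows of protein-coding genes (2.64%). Among 26 immediate early genes with a window it occurred in 3 (11.5%; DUSP1, JUND and MAFF), and among 19 genes of the CREB coactivator and feedback list in 1 (5.26%; SST). Of the 12 genes highest in RNA, 10 had a window and DUSP1 alone held it. A match is a description of the letters only.

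Not every immediate early gene followed this pattern. EGR1, a zinc finger factor, was at 307 CPM after thapsigargin and 134, 977 and 1313 CPM after tunicamycin, above replicate 1 (1.20) and far below replicates 2 and 3. ARC, a cytoskeletal regulator first known from neurons, was at 3.57 CPM after thapsigargin and 0.866, 26.9 and 120.0 CPM after tunicamycin, and JUN, the partner of FOS, at 383 CPM after thapsigargin and 151, 567 and 903 CPM after tunicamycin. FOSB, a relative of FOS, was at 244 CPM after thapsigargin and 2.27, 97.1 and 267 CPM after tunicamycin, inside the range in RNA, but above it in footprints (450.3 against 5.01, 23.9 and 291 CPM). MYC, a growth regulator, was at 25.7 CPM after thapsigargin and 30.0, 89.6 and 161 CPM after tunicamycin, below all 3, and in footprints at 26.9 against 29.6, 136 and 185. DUSP6, the phosphatase of the kinase ERK, was below all 3 in RNA (115 against 213, 197 and 319 CPM) and in footprints (71.7 against 126, 137 and 274), and the blocked fit called it lower (-1.10 ± 0.163, adjusted p = 0.00254).

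Of 36 immediate early genes, 27 were at least 2-fold above replicate 1 in RNA, but 9 lay above all 3 tunicamycin libraries and 3 below, against 26.4% and 23.5% of all coding genes. The median log2 ratio of the list was 1.51 to replicate 1, -0.321 to replicate 2 and -1.10 to replicate 3, so the sign for the list turned with the library it was set against. In footprints 35 were tested, with 28 at least 2-fold above replicate 1, 12 above all 3 and 4 below, and medians of 1.87 to replicate 1, 0.678 to replicate 2 and -0.796 to replicate 3. The blocked fit called 11 of 36 higher (DUSP1, DUSP2, DUSP4, DUSP5, FOS, IER5, KLF2, KLF4, KLF6, NPAS4 and ZFP36) and DUSP6 lower, against 7.38% and 9.02% of all coding genes tested. Of those 11, 5 lay above all 3 in RNA (DUSP1, FOS, IER5, KLF4 and KLF6) and 6 inside the range (DUSP2, DUSP4, DUSP5, KLF2, NPAS4 and ZFP36). For example, KLF2 (4.8 against 1.25, 8.53 and 11.1 CPM), DUSP5 (69.6 against 27.3, 86.2 and 172) and NPAS4 (0.292 against 0.0234, 0.254 and 0.869) were above replicate 1 but inside the range of the 3. KLF2, DUSP5, NPAS4 and the RNA share of mitochondrial mRNA were higher in tunicamycin replicates 2 and 3 than in replicate 1. From replicate 2 to replicate 3 the genes rose and that share did not (1.61% and 1.54%). In footprints the share was highest in replicate 1 (3.40%). The part of the mitochondrial share in the result was not tested. The blocked fit called 8 of the 13 mitochondrially encoded mRNAs higher in RNA, but 0 lay above all 3 tunicamycin libraries. Their median RNA log2 ratio was 0.761 to replicate 1, and -1.672 and -1.682 to replicates 2 and 3. In footprints 11 of the 13 were at least 2-fold below replicate 1, and 4 lay below all 3. The footprint medians were -1.475 to replicate 1, -0.837 to replicate 2 and 0.739 to replicate 3.

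In the calcineurin route, RCAN1 and NFATC2 lay above all 3 tunicamycin libraries in RNA and in footprints. RCAN1, a calcineurin inhibitor that NFAT itself induces, was at 2484 CPM after thapsigargin and 493, 669 and 957 CPM after tunicamycin, with 306, 402 and 491 CPM in untreated cells. Its footprints were at 1467 against 268, 401 and 652 CPM, and the log2 ratios were 2.33 to replicate 1 and 1.87 to the mean of all 3 in RNA. NFATC2, a calcineurin-activated transcription factor, was at 1044 CPM after thapsigargin and 215, 474 and 456 CPM after tunicamycin, and in footprints at 926 against 328, 375 and 502 CPM. The blocked fit called both higher, 1.87 ± 0.373, adjusted p = 0.0422 for RCAN1 and 1.92 ± 0.254, adjusted p = 0.00678 for NFATC2. NFATC2 was at 709, 269.9 and 266 CPM in untreated replicates 1, 2 and 3, and the high first value comes from the library that stood apart. NFATC4 was at 22.4 CPM after thapsigargin and 10.7, 12.5 and 10.7 CPM after tunicamycin, above all 3 in RNA and inside the range in footprints (11.4 against 5.3, 13.3 and 16.6 CPM). Of the 19 genes of calcineurin, NFAT and RCAN, 10 lay above all 3 and 1 below in RNA (medians 0.24 to replicate 1 and 0.14 to all 3). In footprints 5 of 16 lay above and 1 below. Among all coding genes tested the shares were 26.4% above and 23.5% below in RNA, and 20.8% and 19.7% in footprints. The blocked fit called 7.38% of all coding genes tested higher and 9.02% lower. Of 17 in the blocked fit, 3 were called higher (RCAN1, NFATC2, NFATC4) and RCAN3 lower (-0.45, adjusted p = 0.0451).

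The list of CREB coactivators and feedback genes of cAMP and calcium had 12 of 20 members above all 3 and 1 below in RNA, with 9 at least 2-fold above replicate 1 and medians of 0.83 to replicate 1 and 0.52 to all 3. In footprints 10 of 19 lay above and 3 below, with medians of 0.31 and 0.45. In the blocked fit 11 of 19 were called higher and 0 lower, against 7.38% and 9.02% of all coding genes tested. The list was written with earlier results of these data known, so these counts are a description and not independent evidence. Beside RGS2 and RGS16, the 11 included SIK3, a kinase that holds CREB coactivators in the cytosol. SIK3 was at 78.4 CPM after thapsigargin and 25.6, 39.6 and 39.6 CPM after tunicamycin (1.38 ± 0.151, adjusted p = 0.000326). PDE4D, a phosphodiesterase that breaks down cAMP, was at 140.2 CPM after thapsigargin and 62.8, 32.7 and 30.9 CPM after tunicamycin (1.07 ± 0.117, adjusted p = 0.000311), and in footprints at 54.9 against 28.9, 18.3 and 9.15 CPM. PER1, a clock gene with CREB input, was at 89.8 CPM after thapsigargin and 11.5, 40.9 and 62.0 CPM after tunicamycin, and in footprints at 224 against 22.7, 39.1 and 155, above all 3 in both, but did not pass the blocked fit (adjusted p = 0.136). EP300 and BDNF, also among the 11, were inside the range of the 3 in RNA, at 171 against 80.0, 209.5 and 226 CPM and 12.5 against 5.1, 9.15 and 15.7 CPM.

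**Figure D2:**
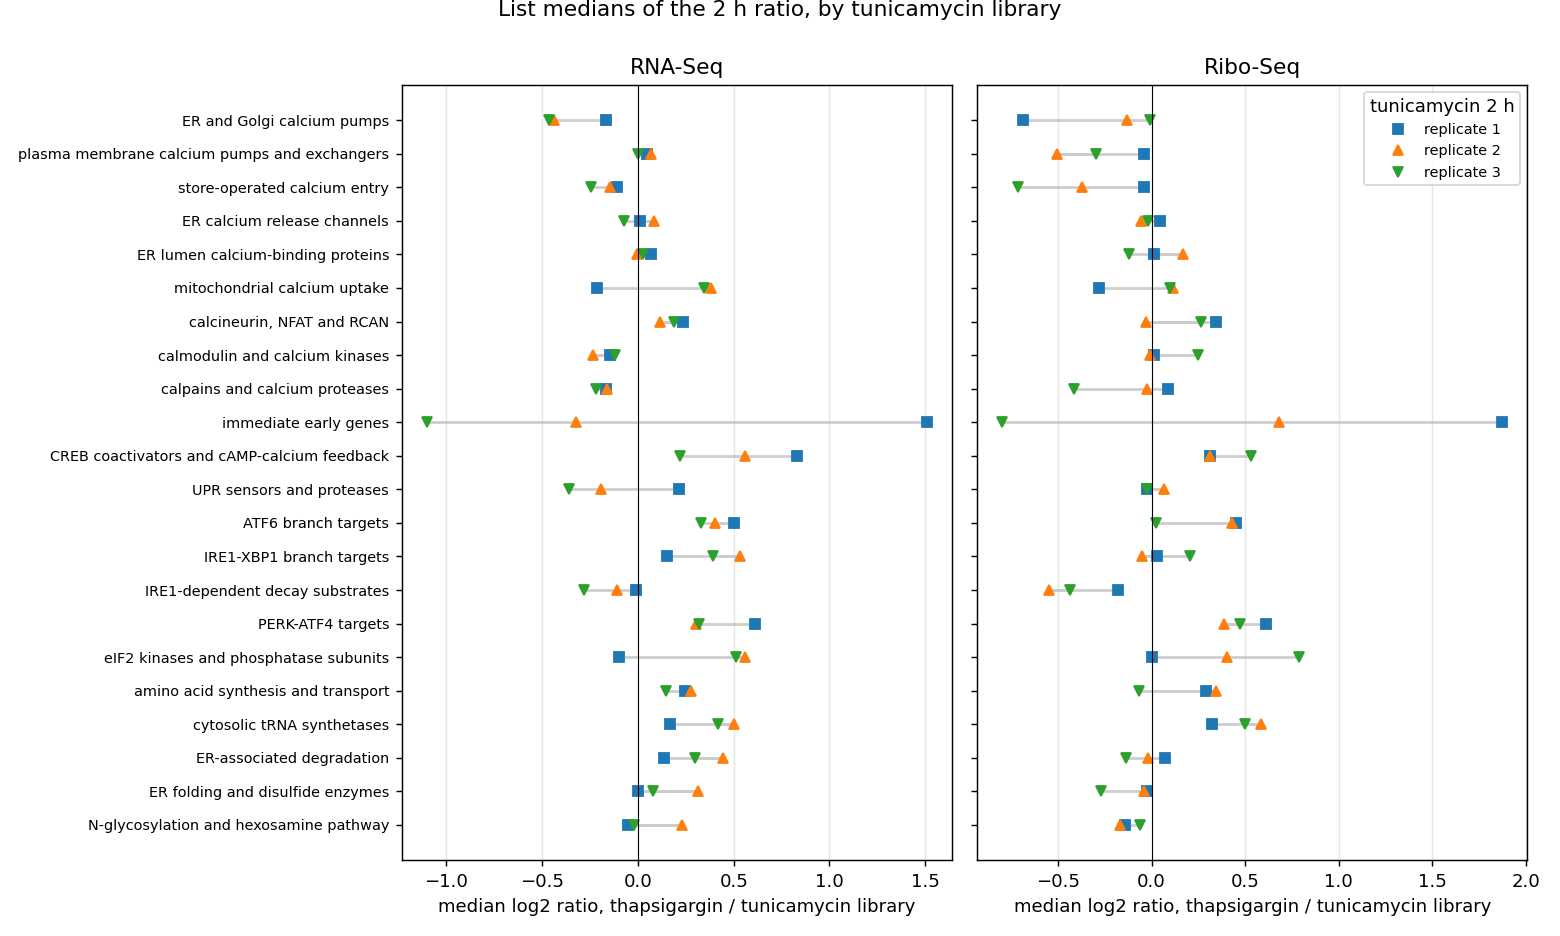
Median log2 ratio of each gene list to each tunicamycin 2 h library, RNA-Seq left and Ribo-Seq right. Squares are ratios to replicate 1, upward triangles to replicate 2 and downward triangles to replicate 3; the median of the immediate early genes runs from 1.51 to -1.10 in RNA, while those of the ATF6 list run from 0.33 to 0.50.

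Of the calcium pumps, ATP2B1 lay above all 3 tunicamycin libraries in both assays and ATP2A2 in footprints alone. ATP2A2, which encodes the SERCA pump that thapsigargin inhibits, was at 510.2 CPM after thapsigargin and 312, 629 and 704 CPM after tunicamycin, above replicate 1 (0.71) and inside the range of the 3, and untreated cells were at 285, 579 and 631 CPM. Its footprints were at 577 against 330.0, 417 and 565 CPM, and the blocked fit called it higher (0.55 ± 0.113, adjusted p = 0.00977), while the unblocked fold change was -0.10. ATP2A3, another SERCA gene, was low in all libraries, at 0.622 against 0.967, 2.02 and 2.3 CPM. ATP2B1, a pump that expels calcium through the plasma membrane, was at 230.1 CPM after thapsigargin and 112, 95.4 and 112 CPM after tunicamycin (0.96 ± 0.101, adjusted p = 0.000264), about 2-fold above every tunicamycin library in RNA, with untreated cells at 199, 104 and 111 CPM. Its footprints were at 68.6 against 59.1, 55.1 and 45.3 CPM. Of the 5 ER and Golgi pumps, 0 lay above all 3 and 3 below in RNA, and of the 12 plasma membrane pumps and exchangers 4 above and 1 below, with median log2 ratios to all 3 of -0.38 and 0.05. By the blocked fit, ATP2A2 alone was called among the 5 and ATP2B1 alone among 10.

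Of 23 genes of store-operated entry, 13 lay below all 3 tunicamycin libraries in RNA and 3 above, with median log2 ratios of -0.11 to replicate 1 and -0.16 to all 3, while 4 of 18 lay below and 1 above in footprints. STIM1, the calcium sensor of the ER, was at 43.0 CPM after thapsigargin and 46.3, 63.5 and 72.1 CPM after tunicamycin (log2 ratios -0.11 to replicate 1 and -0.47 to the mean of all 3), and in footprints at 77.0 against 63.9, 94.7 and 133 CPM, inside the range. ORAI1, the pore of the store-operated channel, was at 12.8 CPM after thapsigargin and 16.2, 19.6 and 22.8 CPM after tunicamycin, and in footprints at 42.8 against 53.3, 54.6 and 54.7, below all 3 in both. ORAI2 was at 56.1 CPM after thapsigargin and 69.4, 70.0 and 71.8 CPM after tunicamycin, and ORAI3 at 1.08 against 1.49, 3.1 and 2.83 CPM. The blocked fit called neither STIM1 (adjusted p = 0.19) nor ORAI1 (0.223). STIM2, the sensor tuned to small losses of store calcium, was at 76.6 against 74.1, 78.4 and 83.1 CPM in RNA, and below all 3 in footprints (35.4 against 39.3, 46.6 and 81.9). SEPTIN4, a septin of the list, was at 1.53 CPM after thapsigargin and 2.43, 2.43 and 2.37 CPM after tunicamycin and was called lower in the blocked fit (-0.75, adjusted p = 0.0494), as was CRACR2B, and the scaffold HOMER1 was called higher. JPH2, which tethers ER to plasma membrane, had footprints at 0.583 against 5.37, 24.2 and 8.91 CPM.

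Of 13 release channel genes, 2 lay above and 2 below all 3 in RNA, with a median of 0.01 to replicate 1, and the blocked fit called ITPRID2 lower. ITPR2, an IP3 receptor, was at 119.7 CPM after thapsigargin and 114, 107 and 108 CPM after tunicamycin, and TMBIM6, a leak channel of the ER membrane, at 698 against 836, 722 and 923 CPM, below all 3 in RNA and in footprints (616 against 775, 737 and 790.5). TMEM38A, a counter-ion channel, was at 3.17 against 4.9, 4.31 and 6.08 CPM. The muscle channel RYR1 had RNA at 0.0471 against 0.0702, 0.0159 and 0.056 CPM, and footprints at 16.9 against 5.01, 2.45 and 0 CPM, so its footprint value had almost no RNA beneath it. Mitochondrial uptake genes (12) had 2 above and 4 below in RNA, with a median of -0.21 to replicate 1 and 0.19 to all 3, and the blocked fit called 0 of 11. SMDT1, a subunit of the mitochondrial uniporter, was at 8.52 against 10.7, 15.7 and 17.6 CPM. In calmodulin and its kinases (24) 5 lay above and 11 below in RNA, and 3 of 16 above and 1 below in footprints, PRKCA, a calcium-activated protein kinase, being the highest (64.9 CPM after thapsigargin and 36.8, 50.2 and 51.9 CPM after tunicamycin; 0.78 ± 0.111, adjusted p = 0.00155). Calpains (10) had 3 above and 6 below in RNA, and 0 of 8 above and 1 below in footprints; CAPN5 was at 25.7 CPM after thapsigargin and 35.6, 49.8 and 44.8 CPM after tunicamycin and was called lower in the blocked fit (-0.64, adjusted p = 0.0109).

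The list of calcium-binding proteins of the ER lumen also holds the membrane protein SELENOK. Of its 17 genes, 6 lay above all 3 and 4 below in RNA, with medians of 0.07 to replicate 1 and 0.05 to all 3. CALR, the lectin chaperone that buffers ER calcium, was at 767 CPM after thapsigargin and 731, 810.4 and 978 CPM after tunicamycin, and in footprints at 824 against 854, 758 and 908 CPM, so that its level after thapsigargin was within the tunicamycin range in both assays. SELENOK, an ER membrane selenoprotein tied to calcium flux, was at 83.2 CPM after thapsigargin and 45.3, 31.4 and 33.0 CPM after tunicamycin (0.82 ± 0.108, adjusted p = 0.00103). Of 17 in the blocked fit, SELENOK and HSPA5 were called higher and 0 lower. HSP90B1, which encodes the chaperone GRP94, was at 2411 CPM after thapsigargin and 1662, 1309 and 1381 CPM after tunicamycin, above all 3, and did not pass the blocked fit (0.34, adjusted p = 0.113).

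Of the ATF6 branch, 14 of 17 targets lay above all 3 tunicamycin libraries and 0 below in RNA, with medians of 0.50 to replicate 1, 0.40 to replicate 2 and 0.33 to replicate 3. In footprints 8 of 16 lay above and 0 below, with medians of 0.45 to replicate 1 and 0.29 to all 3. HERPUD1, an ER membrane protein of ER-associated degradation, was at 788 CPM after thapsigargin and 226, 312 and 296 CPM after tunicamycin, against 36.7, 42.4 and 42.6 CPM in untreated cells. Its footprints were at 738 against 169, 119 and 171 CPM, and the blocked fit gave 1.60 ± 0.146, adjusted p = 0.000159. The tunicamycin values of HERPUD1 were already several times the untreated level, and thapsigargin lay more than 2-fold above the highest of them.

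HSPA5, which encodes the chaperone BiP, was at 2461 CPM after thapsigargin and 812, 2397 and 2419 CPM after tunicamycin, just above replicates 2 and 3 and far above replicate 1 (log2 ratios 1.60 to replicate 1 and 0.55 to the mean of all 3). In footprints it was at 1543 against 771, 764 and 1173 CPM. The blocked fit gave 1.32 ± 0.187, adjusted p = 0.00407, and the unblocked fold change without replicate 1 was -0.06. DNAJB11, a co-chaperone of BiP, was at 215 CPM after thapsigargin and 115, 113 and 112 CPM after tunicamycin, with tunicamycin values almost equal to each other, and in footprints at 192 against 101, 103 and 138 CPM. Of 16 in the blocked fit, 6 were called higher (DNAJB11, HERPUD1, HSPA5, HYOU1, SLC39A14 and XBP1) and 0 lower. Among all coding genes tested, that fit called 7.38% higher and 9.02% lower. HYOU1, a large ER chaperone, was at 593 CPM after thapsigargin and 349.6, 421 and 438 CPM after tunicamycin. CRELD2, MANF and PDIA4 also lay above all 3 in RNA but inside the range in footprints, at 119 against 88.0, 106 and 111, 154 against 116, 116 and 122 and 832 against 649, 643 and 753 CPM in RNA.

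The ER stress element, CCAAT then any 9 bases then CCACG, is the motif through which ATF6 acts, and it is shown for 3 members of the list. The promoters are from RefSeq (GRCh38.p14) and run 5′ to 3′ on the gene's strand, with the element in capitals: HSPA5 at chr9:125241366-125241434 on the minus strand, HSP90B1 at chr12:103930191-103930364 on the plus strand and XBP1 at chr22:28800578-28800646 on the minus strand.
HSPA5: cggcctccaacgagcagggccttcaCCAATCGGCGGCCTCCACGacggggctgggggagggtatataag
HSP90B1: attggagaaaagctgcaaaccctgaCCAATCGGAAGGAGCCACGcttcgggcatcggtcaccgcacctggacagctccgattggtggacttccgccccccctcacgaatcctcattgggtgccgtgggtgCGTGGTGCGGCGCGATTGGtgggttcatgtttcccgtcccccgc
XBP1: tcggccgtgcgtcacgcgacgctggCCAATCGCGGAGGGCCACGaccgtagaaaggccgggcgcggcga
The match begins 66 bases before the start in HSPA5, 194 in HSP90B1 (with a further match on the other strand) and 52 in XBP1. Searched on both strands, the element occurred in 5 of 14 windows of the ATF6 list (35.7%; HSPA5, HSP90B1, CALR, XBP1 and CRELD2), in 2 of 27 windows of the IRE1 list and in 19 of 15254 windows of protein-coding genes (0.125%). The 5 genes that held it included CALR, whose RNA was inside the tunicamycin range, and HERPUD1 was not among them. Other spellings of the element were not searched, and a link between the letters and the values was not tested.

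In the IRE1 branch, 15 of 30 targets of XBP1 lay above all 3 and 0 below in RNA, with medians of 0.15 to replicate 1 and 0.54 to all 3. In footprints 10 lay above and 8 below, with medians of 0.03 and 0.04. XBP1, the transcription factor whose mRNA IRE1 splices, was at 492 CPM after thapsigargin and 169.6, 224 and 232 CPM after tunicamycin, and in footprints at 365 against 136, 167 and 235 CPM (blocked fit 1.18 ± 0.253, adjusted p = 0.0318). The counts per gene do not tell the spliced from the unspliced XBP1 mRNA. SEC24D, a coat protein of vesicles that leave the ER, was at 181 CPM after thapsigargin and 82.1, 112 and 123 CPM after tunicamycin (0.96 ± 0.125, adjusted p = 0.000922), and SYVN1, the ubiquitin ligase of ER-associated degradation, at 95.0 against 33.4, 85.7 and 86.3 CPM (1.38 ± 0.119, adjusted p = 6.61e-05). EDEM1, a lectin that marks misfolded glycoproteins, was at 297 CPM after thapsigargin and 166, 196 and 196 CPM after tunicamycin, above all 3 in both assays. In all, 10 of 30 were called higher by the blocked fit and 2 lower (DDOST and EDEM2). Over all coding genes tested the shares were 7.38% and 9.02%.

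mRNAs known to be cut by IRE1 (12 genes) had 2 above and 2 below in RNA, and 2 above and 7 below in footprints, with medians of -0.01 to replicate 1 in RNA and -0.18 in footprints. BLOC1S1, the best known of these substrates, was at 10.0 CPM after thapsigargin and 15.9, 9.63 and 8.96 CPM after tunicamycin, inside the range, and in footprints at 9.2 against 28.2, 19.5 and 13.2 CPM, below all 3. The blocked fit called 2 of 12 lower and 0 higher in RNA, against 9.02% and 7.38% of all coding genes tested. The 2 were BLOC1S1 (-0.78, adjusted p = 0.00915) and CD59 (-0.41, adjusted p = 0.037). PDGFRB, a receptor on the list, was below all 3 in both assays, at 3.53 against 4.56, 8.45 and 9.45 CPM in RNA. PER1, also on the list, lay above all 3 in both assays. Neither passed the blocked fit, at adjusted p of 0.0781 (PDGFRB) and 0.136 (PER1).

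In the PERK branch, 20 of 30 targets of ATF4 lay above all 3 and 3 below in RNA, 9 were at least 2-fold above replicate 1, and the medians were 0.61 to replicate 1, 0.30 to replicate 2 and 0.32 to replicate 3. In footprints 16 of 29 lay above and 4 below, 11 at least 2-fold above replicate 1, with medians of 0.61 to replicate 1 and 0.42 to all 3. ATF3, a bZIP factor that both ATF4 and calcium signals induce, was at 615 CPM after thapsigargin and 26.2, 121 and 256 CPM after tunicamycin, and in footprints at 605 against 34.0, 48.4 and 219 CPM. DDIT3, which encodes CHOP, was at 380.0 CPM after thapsigargin and 127, 95.1 and 60.3 CPM after tunicamycin, and in footprints at 354 against 121, 42.9 and 46.2. Both lay above every tunicamycin library in both assays. Neither passed the blocked fit, at adjusted p of 0.201 and 0.0749.

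ATF4 itself was at 584 CPM after thapsigargin and 508, 427 and 436 CPM after tunicamycin, and in footprints at 301 against 201, 229 and 171 CPM. Its log2 ratio to replicate 1 was 0.20 in RNA and 0.58 in footprints. EIF2AK3, which encodes PERK, was at 99.0 CPM after thapsigargin and 33.4, 45.1 and 52.3 CPM after tunicamycin, and in footprints at 61.0 against 22.6, 25.6 and 31.1 CPM (blocked fit 1.20 ± 0.247, adjusted p = 0.0248), about 2-fold above tunicamycin in both assays. TRIB3, a pseudokinase that restrains ATF4, was at 134 CPM after thapsigargin and 52.6, 99.5 and 80.5 CPM after tunicamycin, and CHAC1, a glutathione-degrading enzyme, at 87.5 CPM after thapsigargin and 34.5, 71.3 and 69.6 CPM after tunicamycin. SESN2, a stress sensor that restrains mTORC1, was at 200.0 CPM after thapsigargin and 42.0, 141 and 158 CPM after tunicamycin, and in footprints at 331 against 41.6, 84.4 and 214. DDIT4, another restraint on mTORC1, was at 108 CPM after thapsigargin and 67.5, 83.0 and 42.7 CPM after tunicamycin, and in footprints at 307 against 81.9, 64.2 and 121. All of these lay above the 3 tunicamycin libraries in both assays. TRIB3, CHAC1, SESN2 and DDIT4 did not pass the blocked fit, at adjusted p of 0.102, 0.13, 0.0799 and 0.426.

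PPP1R15A, which encodes GADD34, the subunit that lets eIF2 alpha be dephosphorylated, was at 363 CPM after thapsigargin and 108, 246 and 269 CPM after tunicamycin (blocked fit 1.44 ± 0.202, adjusted p = 0.00454). Its footprints were inside the range, at 592 against 129, 369 and 682 CPM. VEGFA, an angiogenic growth factor, was at 198 CPM after thapsigargin and 56.3, 108 and 102 CPM after tunicamycin (1.43 ± 0.285, adjusted p = 0.0291). GDF15, a stress-induced hormone, and SLC7A5, a carrier of large neutral amino acids, went the other way. GDF15 was at 12.2 CPM after thapsigargin and 17.8, 39.8 and 45.2 CPM after tunicamycin and SLC7A5 at 735 CPM after thapsigargin and 1015, 1986 and 2185 CPM after tunicamycin, below all 3 in both assays, and the blocked fit called GDF15 (-0.88, adjusted p = 0.0414) and SLC7A5 (-0.46, adjusted p = 0.0205) lower. That fit called 8 of 29 targets higher (CEBPB, CEBPG, CREBRF, PPP1R15A, SLC7A1, STC2, VEGFA and VLDLR). Its shares among all coding genes tested were 7.38% higher and 9.02% lower. CEBPB, a C/EBP factor, was inside the range of the 3 in RNA (93.0 against 41.5, 146 and 161 CPM) and above it in footprints (439 against 122, 190.3 and 387).

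The C/EBP-ATF element, to which ATF4 and C/EBP factors bind as pairs, was searched as TGATGNAA on both strands. It is shown in capitals for CHAC1 (chr15:40953237-40953294, plus strand, match on the other strand, 209 bases before the start) and ATF3 (chr1:212565191-212565248, plus strand, 191 bases before), again from RefSeq, GRCh38.p14.
CHAC1: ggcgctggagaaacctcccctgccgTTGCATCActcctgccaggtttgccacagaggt
ATF3: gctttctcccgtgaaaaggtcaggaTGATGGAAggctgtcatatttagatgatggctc
It occurred in 6 of 25 windows of the PERK list (24%; ATF3, SLC3A2, SLC7A1, CHAC1, NARS1 and FGF21) and in 388 of 15254 windows of protein-coding genes (2.54%).

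Amino acid genes, which ATF4 also controls, had 13 of 22 above all 3 and 2 below in RNA, with medians of 0.25 to replicate 1 and 0.26 to all 3. CTH, which makes cysteine, was at 30.1 CPM after thapsigargin and 6.05, 10.8 and 11.1 CPM after tunicamycin (1.83 ± 0.366, adjusted p = 0.0316), and in footprints at 10.6 against 2.1, 1.28 and 1.69 CPM. SLC38A2, a glutamine carrier, was at 2081 CPM after thapsigargin and 1042, 993 and 1132 CPM after tunicamycin (0.81 ± 0.134, adjusted p = 0.00357). ASNS, asparagine synthetase, was at 227 CPM after thapsigargin and 138, 178 and 211 CPM after tunicamycin in RNA. It was inside the range in footprints (69.0 against 73.9, 40.1 and 72.7). The blocked fit called 7.38% of all coding genes tested higher and 9.02% lower. By the blocked fit, 6 of 21 were called higher (CTH, GPT2, MTHFD2, SLC38A1, SLC38A2 and SLC6A9) and 2 lower (ALDH18A1 and SLC1A4). Cytosolic tRNA synthetases had 13 of 21 above and 0 below in RNA, and 13 and 0 in footprints, with medians to all 3 of 0.37 and 0.43, and the blocked fit called GARS1 alone (0.60 ± 0.144, adjusted p = 0.0221; 575 CPM after thapsigargin and 325, 405 and 437 CPM after tunicamycin).

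ER-associated degradation (30 genes) had 15 above and 4 below in RNA, and 8 above and 11 below in footprints. EDEM2 lay below all 3 in footprints (75.0 against 118, 113 and 122 CPM), and so did ERLEC1, a lectin of the same pathway (58.1 against 94.4, 97.8 and 126), while in RNA both were inside the range. Folding and disulfide enzymes (49) had 19 above and 8 below in RNA, and 7 above and 10 below in footprints, with 5 at least 2-fold below replicate 1 there. ERO1B, an oxidase that feeds disulfide formation, was at 50.7 CPM after thapsigargin and 24.9, 27.2 and 29.3 CPM after tunicamycin in RNA, above all 3, but below them in footprints (11.0 against 15.6, 13.1 and 18.5 CPM). Of the folding genes, the blocked fit called 7 of 49 higher and 4 lower, and of the degradation genes 3 of 30 higher and 2 lower. Over all coding genes tested the shares were 7.38% higher and 9.02% lower.

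N-glycosylation, the pathway that tunicamycin blocks, had 13 of 42 genes above all 3 and 9 below in RNA, with medians of -0.05 to replicate 1 and 0.06 to all 3, and 6 above and 12 below in footprints, with a median of -0.14 to both. DPAGT1, which encodes tunicamycin's target, was at 31.1 CPM after thapsigargin and 30.0, 27.6 and 33.0 CPM after tunicamycin, with untreated cells at 18.6, 30.2 and 29.8 CPM, and in footprints at 25.7 against 35.2, 28.1 and 23.6 CPM, inside the range in both. Of 42 in the blocked fit, 10 were called lower and 3 higher, against 9.02% and 7.38% of all coding genes tested. DPM3, a subunit of the enzyme that makes dolichol-linked mannose, was at 7.83 CPM after thapsigargin and 15.9, 22.5 and 27.7 CPM after tunicamycin (-1.07 ± 0.14, adjusted p = 0.000916), and in footprints at 19.6 against 24.2, 35.9 and 49.1 CPM. DOLK, which makes dolichol phosphate, was at 12.7 CPM after thapsigargin and 21.6, 18.0 and 22.9 CPM after tunicamycin (-0.87 ± 0.162, adjusted p = 0.00628), and in footprints at 20.9 against 34.0, 43.7 and 71.8. The others called lower were ALG1, ALG3, ALG6, ALG8 and ALG14, which build the lipid-linked sugar, and DDOST, OST4 and TUSC3, which belong to the enzyme that transfers it. Called higher were ALG2, DPM1 and GFPT1, the entry enzyme of hexosamine synthesis, at 207 CPM after thapsigargin and 123, 108 and 102 CPM after tunicamycin (0.80 ± 0.164, adjusted p = 0.0139). In RNA DDOST, OST4, TUSC3 and ALG8 were below replicate 1 but inside the range of the 3.

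**Figure D3:**
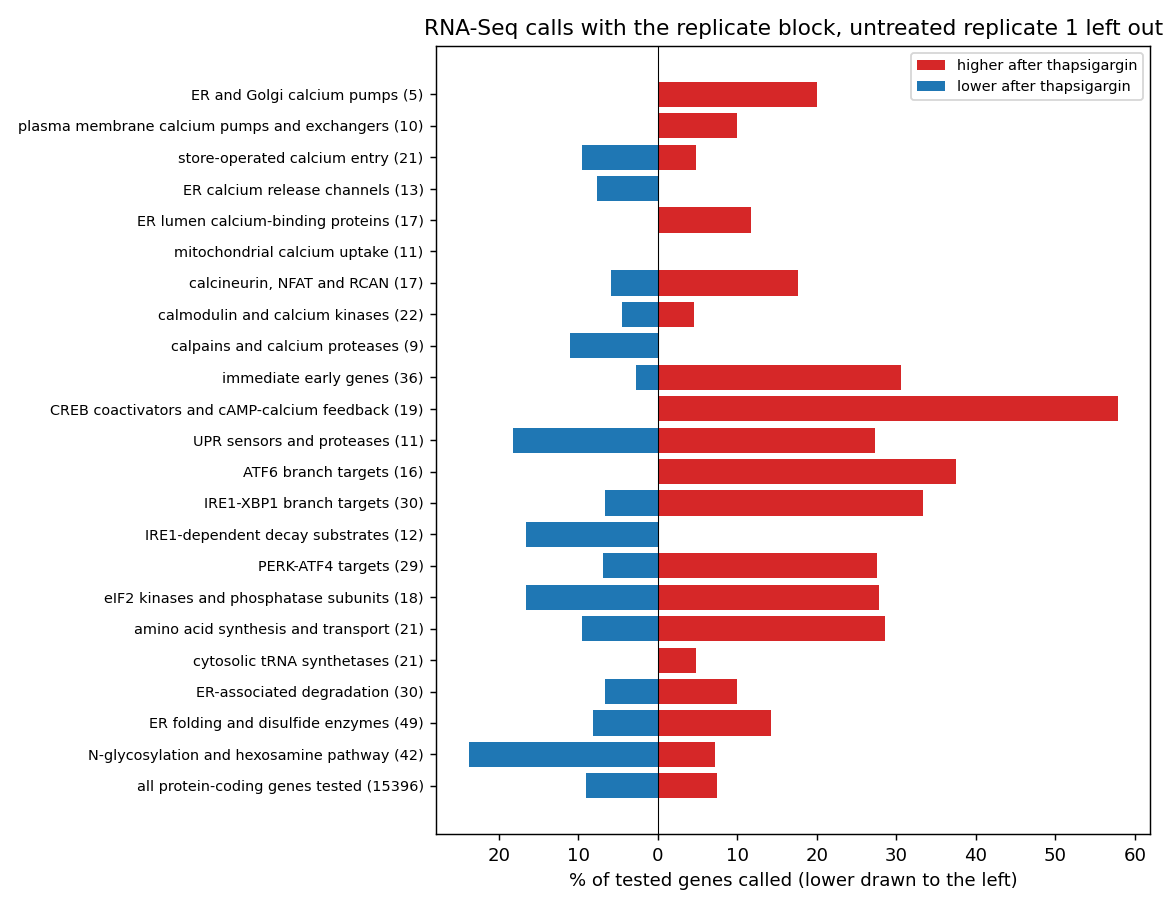
Share of each gene list called higher and lower by the blocked fit in RNA-Seq without untreated replicate 1, in percent of the members tested. Bars to the right are genes called higher and bars to the left genes called lower; the bottom pair gives all 15396 protein-coding genes tested, 7.38% higher and 9.02% lower.

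In RNA fewer genes met both conditions downward (68) than upward (274), while in footprints the counts were 464 and 433. The 12 lowest in RNA by the naming rule were PHLDA2, CCR1, SLC30A2, RDH5, FLG, FGFR3, PRR7, LY6K, PMP2, VIT, FBXO32 and LPCAT1. Of these the blocked fit called 8 lower and did not call PHLDA2 (adjusted p = 0.177), FLG (0.0896), PMP2 (0.0874) and VIT (0.0612). Here too the genes were ranked on the libraries that the fit uses, so that count is not an independent check. SLC30A2, a zinc transporter, was at 6.56 CPM after thapsigargin and 18.4, 19.1 and 19.2 CPM after tunicamycin (-1.78 ± 0.268, adjusted p = 0.00358). FGFR3, a growth factor receptor, was at 5.13 CPM after thapsigargin and 13.7, 18.0 and 23.5 CPM after tunicamycin (-1.47 ± 0.239, adjusted p = 0.00409), and FBXO32, a ubiquitin ligase subunit, at 27.0 CPM after thapsigargin and 64.4, 99.8 and 108 CPM after tunicamycin (-1.56 ± 0.313, adjusted p = 0.029). LPCAT1, a phospholipid acyltransferase, was at 31.2 CPM after thapsigargin and 74.9, 70.3 and 74.5 CPM after tunicamycin, with tunicamycin values that differed little, and in footprints at 48.0 against 89.8, 97.5 and 123 CPM. Of these 12, 11 lay below all 3 in footprints too and 5 were at least 2-fold below replicate 1 there; the exception, RDH5, a retinol dehydrogenase, had footprints at 1.05 against 0.508, 0.64 and 3.61 CPM. Of 14 glial markers in the blocked fit, 4 were called lower, FABP7, GFAP and S100B among them, and 0 higher. Among all coding genes tested the shares were 9.02% lower and 7.38% higher. The part of glial content in the other differences was not tested. S100B, a calcium-binding protein of glia, was at 100.1 CPM after thapsigargin and 210.1, 198 and 205 CPM after tunicamycin (-1.37 ± 0.211, adjusted p = 0.00555).

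RNA and footprints were compared over 10587 coding genes with enough counts in both assays (the minimum of 200 in RNA and 50 in footprints). At least 2-fold above replicate 1 were 329 genes in RNA and 481 in footprints, and 198 in both, which is 60.2% of the first and 41.2% of the second. At least 2-fold below were 55 and 433, and 21 in both (38.2% and 4.85%). The 12 highest genes in RNA were all at least 2-fold above replicate 1 and above all 3 in footprints. Across genes the log2 ratios to replicate 1 had a Pearson r of 0.542, given as a description, since genes are not replicates and the libraries of each assay differ in depth.

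**Figure D4:**
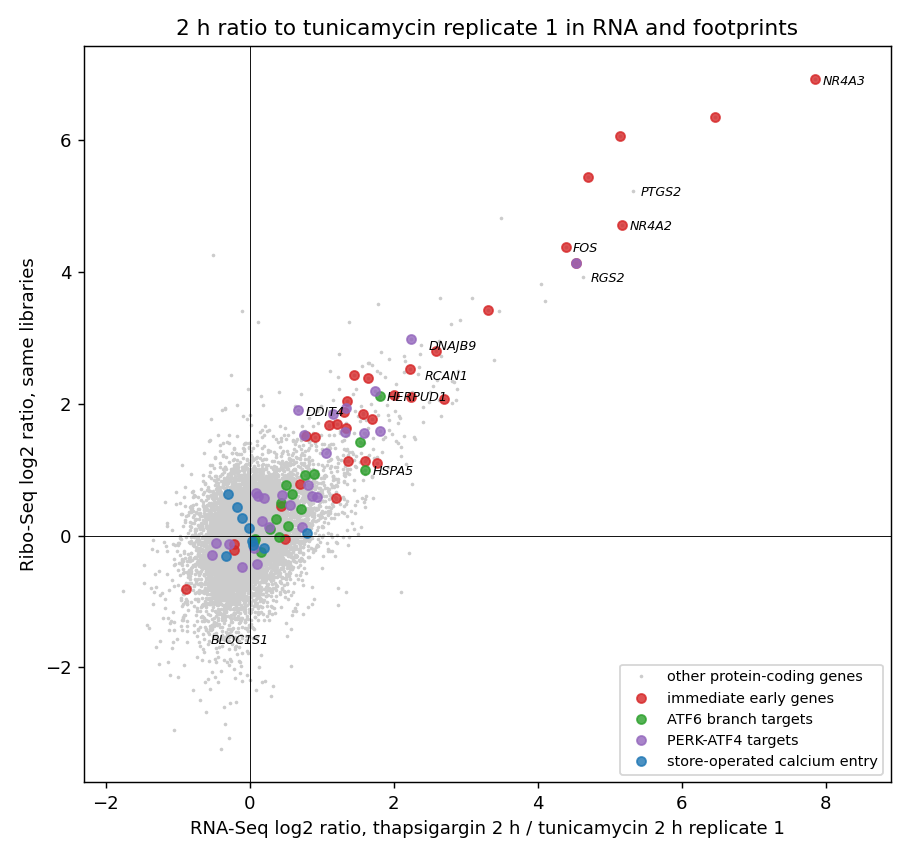
Log2 ratio of thapsigargin to tunicamycin replicate 1 in RNA-Seq (horizontal) and Ribo-Seq (vertical) for 10587 protein-coding genes, with 4 gene lists in colour. NR4A3, PTGS2, NR4A2, FOS and RGS2 lie at the upper right, above 2-fold on both axes.

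Some footprint differences had no counterpart in RNA. AGO4, an Argonaute protein of RNA silencing, had footprints at 177 against 16.3, 30.0 and 13.5 CPM and RNA at 20.4 against 22.0, 16.7 and 15.1 CPM, inside the range. Its footprint counts were 1521 after thapsigargin and 224, 281 and 56 after tunicamycin, and edgeR gave an adjusted p of 0.0834. CALCA, the precursor of calcitonin, had footprints at 10.8 against 0, 0.533 and 0.482 CPM and RNA at 0.0188 against 0, 0 and 0.00934 CPM, close to none. WFDC2, a secreted protease inhibitor, had footprints at 6.87 against 0, 0.32 and 0 CPM and RNA at 0.132 against 0.187, 0.183 and 0.0934. Among the lowest genes in footprints, NKX2-3, a homeobox gene, was at 0.35 against 11.5, 1777 and 20.9 CPM, so its tunicamycin libraries differed widely among themselves, with RNA below 1 CPM in all 4 libraries. Of the 12 lowest in footprints, 6 lay below all 3 in RNA and 1 (MAGEE1) was at least 2-fold below replicate 1 there.

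At 6 h, the genes farthest above tunicamycin at 2 h were still above it, while the median ratios of ATF6 and PERK-ATF4 targets were near 0 in RNA and not in footprints. The 12 highest RNA genes of 2 h were all at least 2-fold above replicate 1 and above all 3 tunicamycin libraries at 6 h. RGS2 had a log2 ratio of 4.06 at 6 h (4.63 at 2 h), NR4A2 3.11 (5.17) and KLF4 1.68 (3.31). For the unfolded protein response the 6 h RNA ratios were 0.33 for HERPUD1, 0.62 for DNAJB9, 0.12 for HSPA5, 0.25 for XBP1 and -0.32 for DDIT3, against 1.80, 2.38, 1.60, 1.53 and 1.58 at 2 h. TRIB3 reached 603 CPM after 6 h of thapsigargin and 804, 718 and 780.3 CPM after 6 h of tunicamycin. The list medians of the RNA ratio to replicate 1 at 6 h were 0.01 for ATF6 targets, 0.18 for IRE1-XBP1 targets, 0.08 for PERK-ATF4 targets and 0.85 for immediate early genes. In footprints the 6 h medians were 0.28, 0.23, 0.46 and 1.34, against 0.45, 0.03, 0.61 and 1.87 at 2 h. The difference between 2 h and 6 h was not tested.

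**Figure D5:**
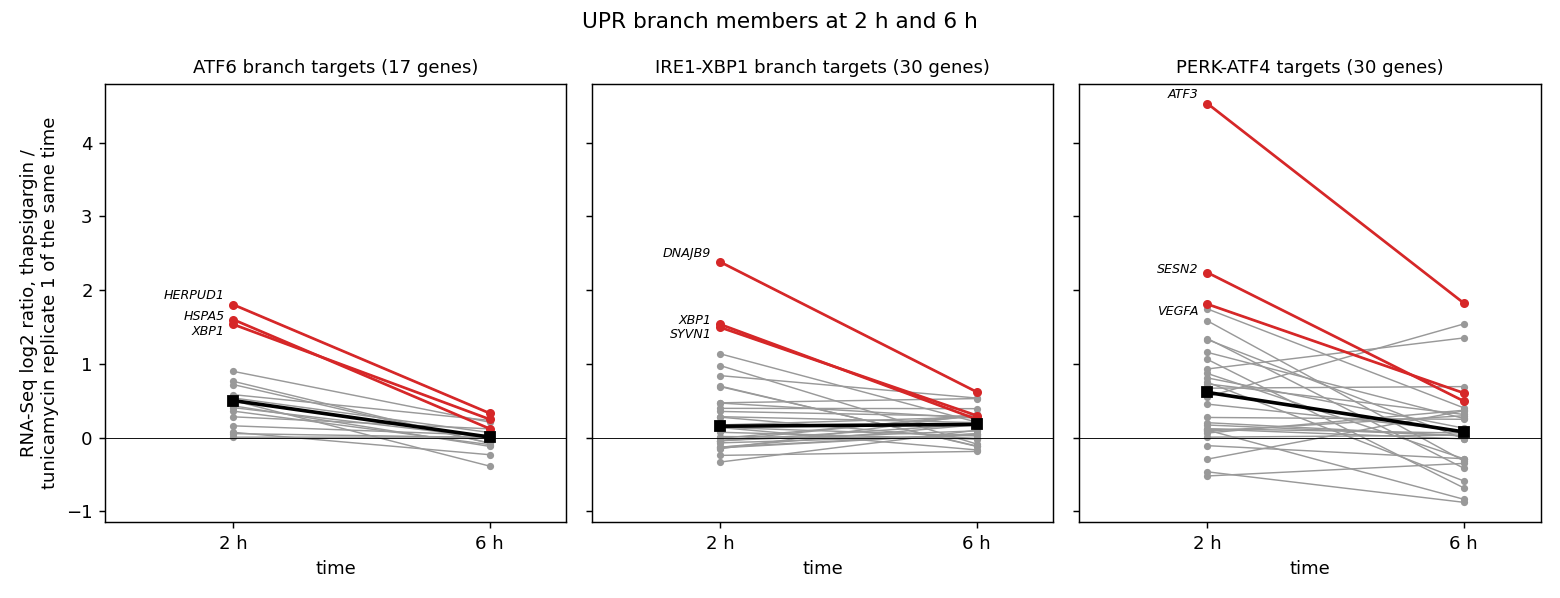
RNA-Seq log2 ratio of thapsigargin to tunicamycin replicate 1 at 2 h and at 6 h for the targets of ATF6, IRE1-XBP1 and PERK-ATF4. Each thin line is a gene, the 3 with the largest 2 h ratio are in red, and black squares are list medians, which go from 0.50 to 0.01 for ATF6, from 0.15 to 0.18 for IRE1-XBP1 and from 0.61 to 0.08 for PERK-ATF4.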

How the data were processed

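RNA-Seq and Ribo-Seq (27 to 33 nt ribosome-protected fragments from cells given 0.1 mg/ml cycloheximide for 5 min before lysis) were deposited as raw read counts per gene, 1 file for each library. The authors aligned reads to GRCh38 with STAR 2.5.4b and counted them with HTSeq, per the submitters' processing notes; neither the annotation nor whether strand was used is known from the sources used here, so overlapping and antisense genes cannot be told apart. Of 58278 entries, 57437 matched a symbol, and 19078 were protein-coding in RefSeq. Here, each assay was fitted apart with all its groups in edgeR 4.0.16 (R 4.3.3; TMM scaling, quasi-likelihood test, minimum count of 10 in filterByExpr), which left 41130 and 19411 entries over which p-values were adjusted. DESeq2 1.42.0 was an alternative. Ratios use CPM + 0.5.

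Genes named are the 12 highest and 12 lowest per assay, by the smaller size of the ratio to replicate 1 and to all 3, among protein-coding genes outside the tunicamycin range with at least 200 (RNA) or 50 (footprint) counts in thapsigargin or replicate 1. To these were added the 3 leading members of each calcium or unfolded protein response list, fixed sentinels (HSPA5, ATF4, DDIT3, ATP2A2, STIM1, RCAN1, FOS, EGR1, DPAGT1 and others) and genes that edgeR called; further genes are named as members that the blocked fit called or for their role, chosen after their values were seen. The members and lists were chosen with earlier results of these data known. RNA-Seq libraries with the same number in their labels deviated together from their group means (correlations 0.183 to 0.871), so the number was used as a block. The numbered Ribo-Seq libraries did so too (0.16 to 0.646), but the thapsigargin Ribo-Seq label carries no number, so footprint fits have no block. A few members counted in the lists are not reported here by name.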

Additional observations from a re-analysis of the deposited data

How the results depend on the processing

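Each drug was given at 1 dose and thapsigargin had 1 library per assay, so no value has a replicate check on that side. The footprint libraries were the shallower, and genes with few footprints rest on few counts. Scaling by library size alone moved the median log2 ratio to all 3 over coding genes from 0 to 0.149 in footprints and from 0.007 to -0.011 in RNA. Leaving out untreated replicate 1, with or without the replicate block, and library-size ratios were chosen after seeing the data. The cause of the changes below was not tested, beyond the fewer samples or genes that some settings hold.

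Against 3 coding genes called higher in RNA, DESeq2 called 80, scaling by library size 0, no filter 5, the compared groups alone 0, a fit of coding genes only 0, replicate 1 as the only tunicamycin library 0, the replicate block 5 and the replicate block without untreated replicate 1 1136; leaving out single libraries gave 0 to 15. Against 0 called lower, DESeq2 called 56 and the replicate block without untreated replicate 1 1389. In footprints, against 3 called higher and 0 lower, DESeq2 called 25 and 11, no filter 35 and 4, the compared groups alone 0 and replicate 1 alone 0, and leaving out single libraries gave 0 to 12 higher. No paired analysis was made in footprints because the thapsigargin label carries no number that ties it to a replicate. Genes 2-fold below replicate 1 and below all 3 in RNA went from 68 to 105 with library size. 

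Signs turned for fold changes near 0 or with split tunicamycin libraries. In RNA ATP2A2 (-0.104) came to 0.634 with replicate 1 alone, 0.643 with the replicate block, 0.554 with it and without untreated replicate 1, and -0.476 to 0.116 with single libraries left out. CAPN15 (-0.925) came to 0.103 with the block, ITPR2 (0.131) to -0.009 and -0.025 in the 2 blocked fits, SLC8A1 (0.25) to -0.039 with replicate 1 alone, and EGR1 (-1.396) to 1.129 with replicate 1 alone and 0.648 in the block without untreated replicate 1. DPAGT1 (0.042) came to -0.011 (DESeq2), -0.077 (library size), -0.052 (no filter), -0.043 (compared groups alone), -0.042 (coding genes only), -0.021 (replicate 1 alone), -0.038 (block without untreated replicate 1), and -0.054 to 0.11 with single libraries left out. HSPA5 (0.392) ran from -0.061 to 0.617 with single libraries left out. In footprints ASNS (0.149) came to -0.098 and STIM1 (-0.332) to 0.269 with replicate 1 alone, and with single libraries left out ASNS ran from -0.09 to 0.295 and EGR1 (0.106) from -0.227 to 0.83.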

Other observations

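Other gene groups outside the calcium and unfolded protein lists were read the same way. Of 28 cholesterol genes, 11 lay above all 3 tunicamycin libraries and 7 below in RNA, 7 were at least 2-fold above replicate 1, and the medians were 0.32 to replicate 1 and 0.07 to all 3. In footprints 11 of 27 lay above and 3 below, with medians of 0.48 and 0.49. The fit with the replicate block and without untreated replicate 1 (edgeR) called 7 of 28 higher, HMGCS1, HSD17B7, INSIG1, MSMO1, SQLE and STARD4 among them, and 2 lower (EBP and SCAP). Over all coding genes tested, that fit called 7.38% higher and 9.02% lower. HMGCS1, an early enzyme of the pathway, was at 154 CPM after thapsigargin and 39.8, 57.6 and 83.6 CPM after tunicamycin (1.62 ± 0.24, adjusted p = 0.00732), and INSIG1, which holds the sterol sensor in the ER, at 243 CPM after thapsigargin and 45.5, 145 and 295 CPM after tunicamycin.

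Of 24 cytokine and NF-kB feedback genes, 8 lay above all 3 and 4 below in RNA, 12 were at least 2-fold above replicate 1, and the medians were 1.06 to replicate 1, 0.01 to replicate 2 and -0.41 to replicate 3. In footprints these medians were 0.85, -0.81 and -0.19, so the sign for the list turned with the library in both assays. In RNA the blocked fit called 11 of 23 higher and 0 lower. TNFAIP3, a ubiquitin editor that ends NF-kB signalling, was at 109 CPM after thapsigargin and 5.9, 44.2 and 92.5 CPM after tunicamycin (3.65 ± 0.638, adjusted p = 0.0462). CXCL8, a chemokine, was at 126 CPM after thapsigargin and 16.5, 392 and 1205 CPM after tunicamycin, and IL6 at 1.96 CPM after thapsigargin and 0.281, 0.914 and 1.65 CPM after tunicamycin. Heat shock genes (22) had 10 above and 5 below in RNA and 12 above and 2 below in footprints, with 0 at least 2-fold above replicate 1 in RNA. Of 20 apoptosis genes, 7 lay above and 4 below in RNA; the blocked fit called PMAIP1 (223 CPM after thapsigargin and 111, 87.6 and 114 CPM after tunicamycin; 0.84 ± 0.129, adjusted p = 0.00237) and BBC3, both BH3-only proteins that promote apoptosis, higher and BAX lower. These lists are descriptions, and no cause was tested. The background shares above and below all 3 were 26.4% and 23.5% in RNA, and 20.8% and 19.7% in footprints. For the blocked fit they were 7.38% higher and 9.02% lower.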
